A study of Mus musculus with 4 samples.

Results

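The iron transport and storage genes described here are 10 genes, Slc40a1, Slc11a2, Tfrc, Trf, Fth1, Ftl1, Aco1, Ireb2, Cp and Heph, among 17016 named mouse genes with a probe on the array. They were chosen by symbol as a set of proteins that carry, store or sense iron, with the response of Slc40a1, Tfrc and Cp to the treatment already known. Their own changes are therefore given below as a description, with standard errors (SE) and no p-values. All 10 had a probe, 14 probes in all, named through the RefSeq accession that each probe carries.

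The RNA came from prostate basal cells of adult FVB mice, isolated by cell sorting and grown as prostate spheres, a culture in which sorted epithelial cells form balls of cells. Vehicle spheres received the solvent DMSO, and DAPT spheres received 5 µM DAPT, with fresh medium every 24 h in both groups. DAPT inhibits γ-secretase, the protease complex that cuts Notch receptors and frees their active intracellular part, and it also blocks the cutting of other membrane proteins by this complex. The comparison asks how gene expression in the spheres differs when Notch signalling is suppressed. Each group had 2 arrays, and the labels do not say whether these came from separate cultures or animals, how many animals were pooled, or for how long the spheres were treated. The spread between arrays may thus be technical. On every array the spheres were read in red, and green held the same commercial reference, a pool of mouse RNA, so each ratio below is log2 of sphere over reference.

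Iron reaches most cells bound to transferrin (Trf), which the transferrin receptor (Tfrc) takes into endosomes, and the divalent metal transporter Slc11a2 (DMT1) then moves it into the cytosol. Ferritin, built of the heavy chain Fth1 and the light chain Ftl1, stores what is not used. Ferroportin (Slc40a1) is the known iron exporter of mammalian cells and works with the copper-containing ferroxidases ceruloplasmin (Cp) and hephaestin (Heph). The iron regulatory proteins Aco1 (IRP1) and Ireb2 (IRP2) bind iron-responsive elements in mRNA. When iron is low they protect Tfrc mRNA from decay and hold back translation of the ferritin and ferroportin mRNAs. In the prostate, ferroportin is best known from tumours, where low levels have been described.

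Median red signal was 1.83 to 2.84 times the local background, in red 63.67% to 69.47% of spots were called well above background, and no probe spot was saturated. The scanner software marked 11.55% and 29.2% of spots on the vehicle arrays and 49.59% and 50.9% on the DAPT arrays as non-uniform or outliers. On the single slide the vehicle arrays held positions 4 and 3 and the DAPT arrays positions 2 and 1, so position and treatment cannot be told apart. The keratins Krt5 and Krt14, which mark the labelled basal cells, lay 3.88 to 5.17 (log2) above the reference on every array. Of the 8 fibroblast markers tested, 6 were lower in DAPT spheres in limma's test across all genes, where 3.92% of all genes were lower. Lum (0.16) and Pdgfra (-0.40) did not pass. The summed normalized red signal of all 8 was 52070 and 39281 on the vehicle arrays against 11575 and 12272 on the DAPT arrays. Of the 12 macrophage markers, 11 had a probe and 8 were tested. None of the 8 passed, and the summed signal of the 11 with a probe was 2327 and 2846 against 2199 and 2632. Mrc1 and Cd163 were not well above background on any array. Of the 4 erythroid markers tested, Hba-a1 was lower in DAPT spheres (-0.99) and the others did not pass. In RNA from whole spheres, fewer cells of a type and less RNA per cell cannot be told apart.

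Among the 9 members bright enough to test, ferroportin (Slc40a1) and ceruloplasmin (Cp) were lower in DAPT spheres and the transferrin receptor (Tfrc) was higher. Slc40a1 was 5.46-fold lower, Cp 1.70-fold lower and Tfrc 1.92-fold higher. The transferrin gene, both ferritin chains, Slc11a2 and both iron regulatory proteins did not pass the threshold, an adjusted p under 0.05 in limma over all 21464 genes tested. Heph was too dim to test. Over all genes 6.8% passed, 2.88% higher and 3.92% lower. Since the members were chosen with this contrast in view, nothing is read from 3 of 9 against that share. The median change of the 9 members was -0.22 on the log2 scale and that of all genes was -0.06.

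**Figure D1:**
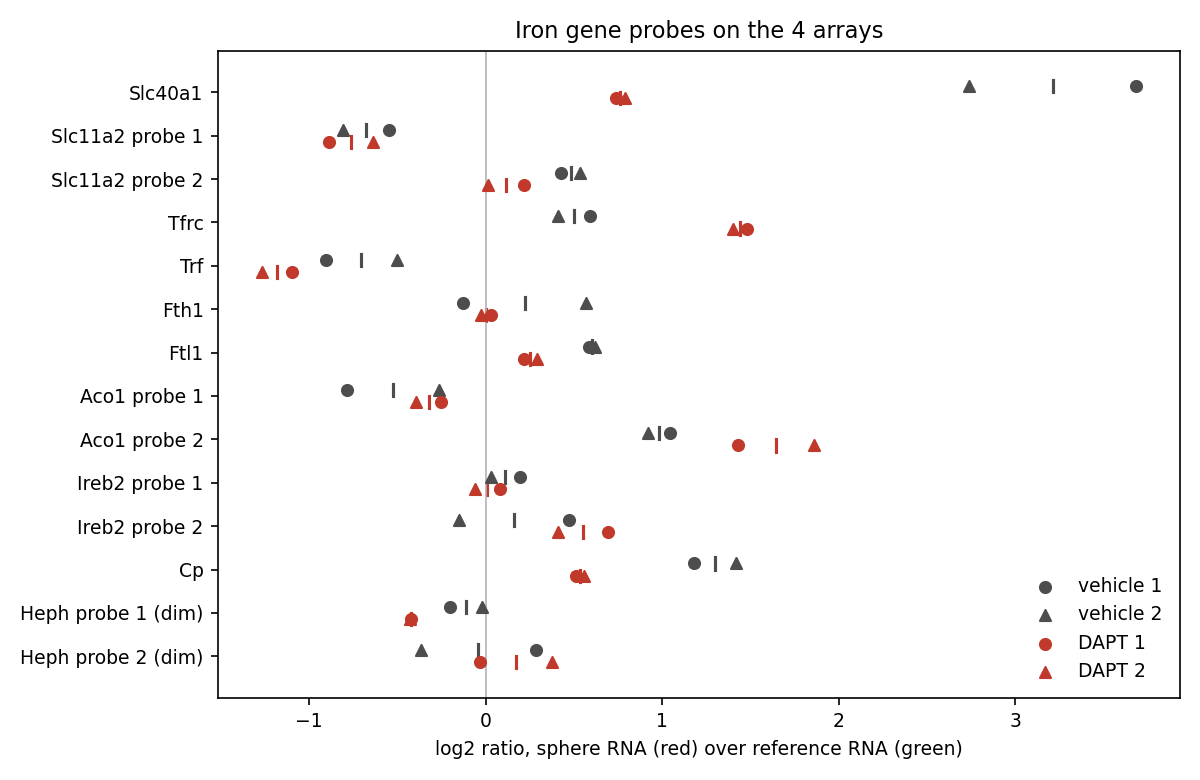
Log2 ratio of sphere RNA over reference RNA (horizontal axis) for the 14 probes of the iron genes (vertical axis), with each of the 2 vehicle arrays (grey) and 2 DAPT arrays (red) as a point and the mean of each group as a short bar. The Heph probes are marked as dim. Slc40a1 falls from 3.68 and 2.74 to 0.74 and 0.79, Tfrc rises from 0.59 and 0.41 to 1.48 and 1.40, and most other probes lie close together or overlap between groups.

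The stretches before the start sites of 3 genes are printed because these genes carry the differences described here and have an entry among the RefSeq promoters of build GRCm38.p6. They are Tfrc, the member that was higher, Cp, a member that was lower, and Steap4, an iron reductase with the largest fall among the other iron genes. Each is 250 bases long, 5′ to 3′ on the gene's strand, and ends at the base before the annotated start. The Tfrc stretch is chr16:32608872-32609121, that of Cp chr3:19956804-19957053 and that of Steap4 chr5:7960222-7960471, all on the plus strand. Capitals mark a match, on either strand, to TGGGAA (the core bound by RBPJ, the DNA-binding partner of Notch), to ACGTG (the core of the hypoxia response element, contained in the E-box CACGTG) or to TGACNNNGC (the core of the antioxidant response element).
Tfrc: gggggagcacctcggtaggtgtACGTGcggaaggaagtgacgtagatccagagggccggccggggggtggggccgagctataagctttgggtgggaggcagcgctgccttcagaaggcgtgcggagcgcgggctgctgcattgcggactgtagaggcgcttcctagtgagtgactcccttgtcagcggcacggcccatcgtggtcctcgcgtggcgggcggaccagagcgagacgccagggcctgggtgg
Cp: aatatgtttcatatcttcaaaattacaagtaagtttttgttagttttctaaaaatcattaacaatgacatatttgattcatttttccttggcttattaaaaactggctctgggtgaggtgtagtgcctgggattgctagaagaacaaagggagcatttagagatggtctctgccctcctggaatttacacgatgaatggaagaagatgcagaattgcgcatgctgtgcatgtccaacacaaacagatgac
Steap4: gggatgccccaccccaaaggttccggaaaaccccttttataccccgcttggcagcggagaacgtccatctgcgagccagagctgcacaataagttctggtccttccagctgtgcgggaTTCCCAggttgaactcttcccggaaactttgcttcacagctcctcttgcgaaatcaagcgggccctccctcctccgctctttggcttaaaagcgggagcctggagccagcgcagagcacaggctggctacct

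The Tfrc stretch held 1 match to ACGTG, 228 bases before the start, and the other annotated Tfrc start had none of the motifs. Neither Cp window held a match. Steap4 held TGGGAA on the minus strand, 132 bases before its start. Of the other iron genes that passed and have an entry, Lrp1 held TGGGAA and TGACNNNGC, and Lcn2 and Abcb10 held none of the motifs. Of 32851 windows of this length in the table, 21.6% held TGGGAA, 16.6% held ACGTG, 6.02% held CACGTG and 10.2% held TGACNNNGC. Among the 6 members with an entry, Fth1 and Aco1 also held TGGGAA, in 1 window each, and Ftl1 and Ireb2 held none of the motifs. These matches describe the letters and say nothing of binding.

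Slc40a1, the iron exporter, had log2 ratios of 3.68 and 2.74 on the vehicle arrays and 0.74 and 0.79 on the DAPT arrays. Both DAPT arrays lay below both vehicle arrays, and the vehicle arrays stood further apart from each other than the DAPT arrays did. The change was -2.45 ± 0.27 (SE, n = 2 arrays per group). Before normalization, the red signal of the spot was 696 and 360 units with vehicle and 147 and 167 with DAPT, over a local background of 55 to 69 units. The spot was well above background on all 4 arrays and was not marked on any. After normalization the red signal changed by -2.30 (log2) and the green signal of the shared reference by 0.15, so the change of the ratio lay in the sphere channel. In the authors' deposited table the same probe read 3.70, 2.80, 0.76 and 0.81 in the same order. Over the other ways of processing, with those that left out 1 array, the change of Slc40a1 was -2.92 to -1.98. Several of the 14 that kept all 4 arrays left the change of Slc40a1 at -2.45, so passes under them are not separate checks. Slc40a1 passed under 13 of these 14. It did not pass in the red channel alone, where the change was -2.30 and where 1 of 21464 genes passed in limma (2638 had an unadjusted p under 0.05).

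Macrophages that recycle haem iron are known for high ferroportin. Their 8 tested markers changed by -0.53 to 0.04 with a median of -0.20, none passed, and their part in the fall of Slc40a1 was not tested. Of the fibroblast markers, 6 of 8 fell together with Slc40a1, and the part of these was not tested either. Among the 5 named genes whose centred log2 ratios lay closest to those of Slc40a1 over the 4 arrays, of 13986 compared, were H2-Ab1, Alox12, Ly6d and Steap4, at Euclidean distances of 0.290 to 0.415. H2-Ab1 encodes an MHC class II chain (-2.22), Alox12 a lipoxygenase (-2.54), Ly6d a small surface protein (-2.14) and Steap4 a metalloreductase (-2.04). With 4 arrays, such likeness is a description.

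Cp, the ferroxidase that oxidises iron as it leaves the cell, had log2 ratios of 1.18 and 1.42 with vehicle and 0.51 and 0.56 with DAPT. The groups did not overlap, and the change was -0.77 ± 0.20 (SE, n = 2 per group). The raw red signal was 2323.5 and 1770 units with vehicle and 1935 and 1979 with DAPT, which overlap. The DAPT arrays had higher median red signals, with 171 and 145 units against 118.5 and 109, and after normalization the red signal of Cp changed by -0.89 (log2) and the green signal by -0.13. The Cp spot was marked as non-uniform or an outlier on all 4 arrays. Cp passed under 8 of 13 alternatives that kept all 4 arrays, several of which left its change at -0.77. Without 1 array the change of Cp was -0.88 to -0.65, and median centring, used instead of loess, gave a change of -0.32.

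Heph, the membrane-bound ferroxidase, had 2 probes, and neither was well above background on both arrays of a group. The first was well above background on 1 array and read -0.20 and -0.02 with vehicle and -0.42 and -0.43 with DAPT. The second was not well above background on any array and read 0.28 and -0.37 with vehicle and -0.03 and 0.37 with DAPT. At these signals no difference was detectable.

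Tfrc, the receptor for iron-loaded transferrin, had log2 ratios of 0.59 and 0.41 with vehicle and 1.48 and 1.40 with DAPT. Both DAPT arrays lay above both vehicle arrays, and arrays of a group differed by far less than the groups. The change was 0.94 ± 0.20 (SE, n = 2 per group), with red 1.05 higher and green 0.11 higher after normalization. The mean raw red signal was 117 and 109 units with vehicle and 312 and 261 with DAPT.

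The Tfrc probe was printed at 10 spots on each array, which share the RNA and the hybridization and measure technical spread. Spots marked as non-uniform or outliers occurred among them on 3 arrays. On vehicle 2, 9 of the 10 were well above background, and on the other arrays all 10 were. Spot ratios ran from 0.38 to 0.70 with a median of 0.63 on vehicle 1 and from 0.11 to 0.74 with a median of 0.39 on vehicle 2. On DAPT 1 they ran from 1.07 to 2.03 with a median of 1.32, and on DAPT 2 from 0.82 to 1.95 with a median of 1.46. The lowest spot of the DAPT arrays thus lay above the highest spot of the vehicle arrays. Tfrc passed under 9 of 14 alternatives that kept all 4 arrays, several of which left its change at 0.94. Without 1 array the change of Tfrc was 0.85 to 1.03. It did not pass with the 13 spots of very high local background on DAPT 2 kept in the background fit, where its change was 0.44, or with median centring (0.60), processed signals (0.69), an offset of 10 (0.92) or the red channel alone (1.05).

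**Figure D2:**
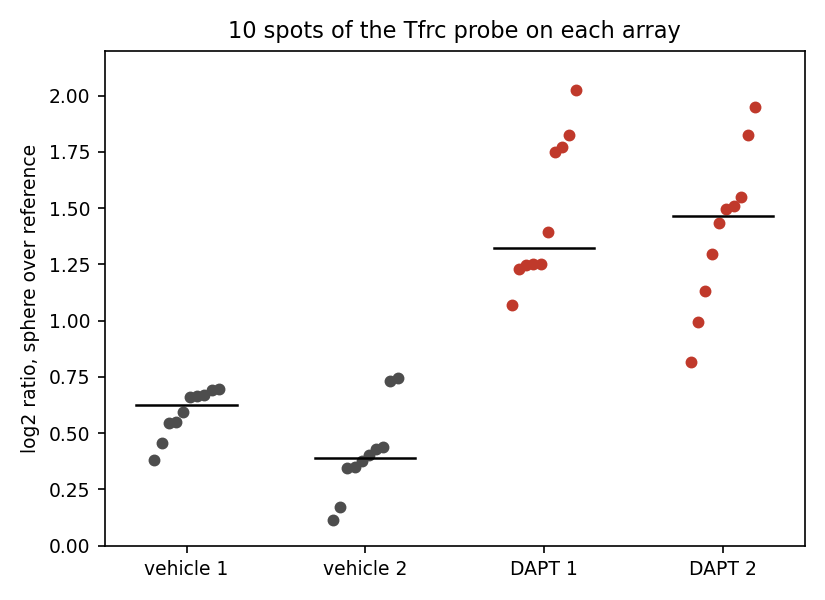
Log2 ratio of sphere over reference (vertical axis) at each of the 10 spots of the Tfrc probe on the 4 arrays (horizontal axis), with the median of each array as a line. The vehicle spots lie between 0.11 and 0.74 and the DAPT spots between 0.82 and 2.03.

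Trf, the carrier protein itself, had log2 ratios of -0.90 and -0.50 with vehicle and -1.10 and -1.27 with DAPT, a change of -0.48 ± 0.21 (SE, n = 2 per group). The groups did not overlap, but the change did not pass. Its red signal was well above background on 3 arrays, and the change lay mostly in the reference, with red at -0.11 and green at 0.37.

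Slc11a2, which brings iron out of the endosome, had 2 kept probes. The brighter read -0.55 and -0.81 with vehicle and -0.89 and -0.64 with DAPT, so its groups overlapped, with a change of -0.09 ± 0.20 (SE, n = 2 per group). That sign turned under 6 of 17 alternatives, among them median centring (0.26) and processed signals (0.60). The dimmer probe read 0.43 and 0.53 with vehicle and 0.22 and 0.02 with DAPT, a change of -0.37. It did not pass in the fit of every probe.

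Fth1, the ferritin chain with ferroxidase activity, had log2 ratios of -0.13 and 0.57 with vehicle and 0.03 and -0.03 with DAPT. The DAPT arrays lay between the vehicle arrays, and the change was -0.22 ± 0.24 (SE, n = 2 per group). Its raw red signal was 11962 to 21189 units over a background of 63 to 68, so dim signal does not limit this value. Ftl1, the chain that helps form the mineral core, read 0.59 and 0.62 with vehicle and 0.22 and 0.29 with DAPT, a change of -0.35 ± 0.19. The Ftl1 groups did not overlap, yet the change did not pass. Its sign and that of Fth1 turned with median centring, to 0.11 and 0.23, and Fth1 turned without vehicle 2 as well (0.13). Pseudogene and family copies of ferritin may share these probes, which could not be checked because no probe sequences were used here, so both values are uncertain in this respect.

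Aco1, which is IRP1 without its iron-sulfur cluster and the cytosolic aconitase with it, had 2 kept probes. The brighter read -0.78 and -0.26 with vehicle and -0.25 and -0.39 with DAPT, which overlap, a change of 0.20 ± 0.22 (SE, n = 2 per group) that was -0.06 without vehicle 1. The other read 1.05 and 0.92 with vehicle and 1.43 and 1.86 with DAPT, which do not overlap, a change of 0.66 ± 0.21 that did not pass in the fit of every probe. On that probe both channels were higher, red by 1.57 and the reference by 0.91. Which Aco1 transcripts each probe detects could likewise not be checked.

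Ireb2, the IRP that is degraded when iron is plentiful, also had 2 kept probes. The brighter read 0.19 and 0.03 with vehicle and 0.08 and -0.06 with DAPT, a change of -0.10 ± 0.20 (SE, n = 2 per group). The other read 0.47 and -0.15 with vehicle and 0.69 and 0.41 with DAPT, a change of 0.39 ± 0.24. Groups overlapped on both probes, the probes differed in sign, and neither passed.

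**Figure D3:**
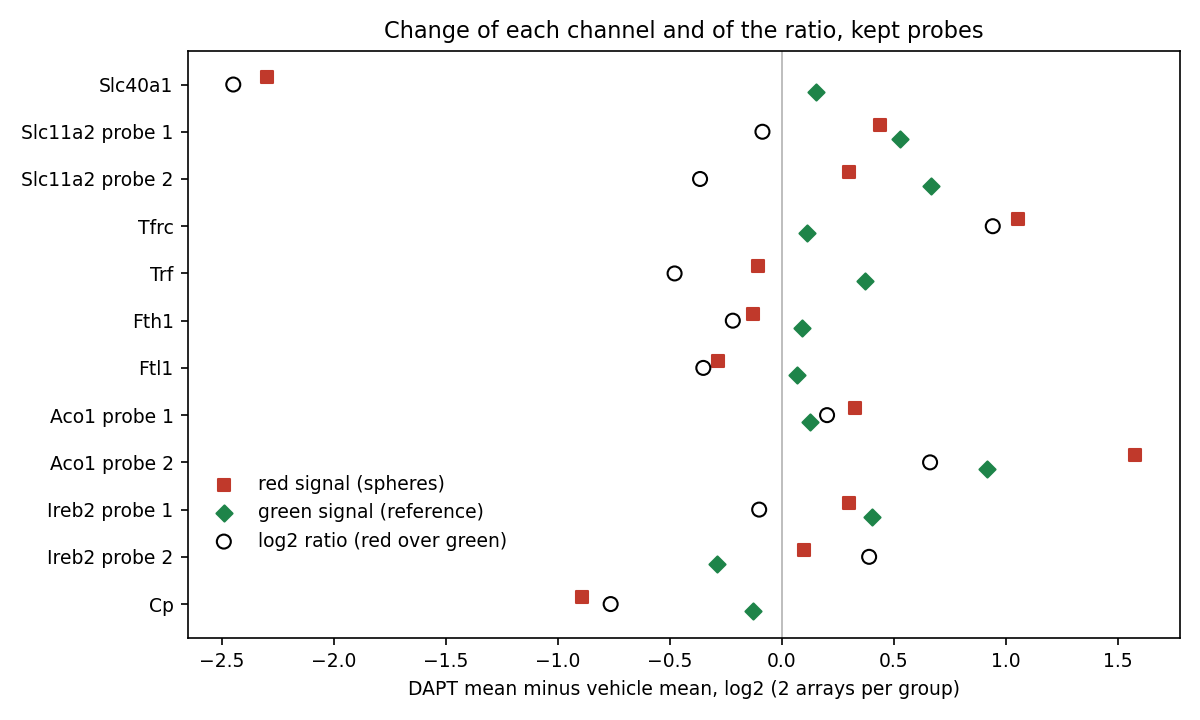
Difference of group means, DAPT minus vehicle, on the log2 scale (horizontal axis) for each kept probe (vertical axis), in the normalized red signal of the spheres, the normalized green signal of the reference and the log2 ratio. Slc40a1 (red -2.30, green 0.15), Tfrc (red 1.05, green 0.11) and Cp (red -0.89, green -0.13) changed mainly in red, and Aco1 probe 2 changed in both channels.

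Over the 12 kept probes of the members, both DAPT arrays lay above both vehicle arrays on 2, below on 5 and overlapped on 5. Groups did not overlap on 54.3% of all kept probes, with DAPT above on 23.8% and below on 30.6%, so such separation is common here. In the fit of every kept probe, where 6.9% passed (3.17% higher, 3.73% lower), 1 member probe was higher (Tfrc) and 2 were lower (Slc40a1 and Cp). With 2 arrays against 2, an exact two-sided permutation test of a single gene cannot give a p below 0.333, so every call rests on limma's sharing of the spread between genes.

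**Figure D4:**
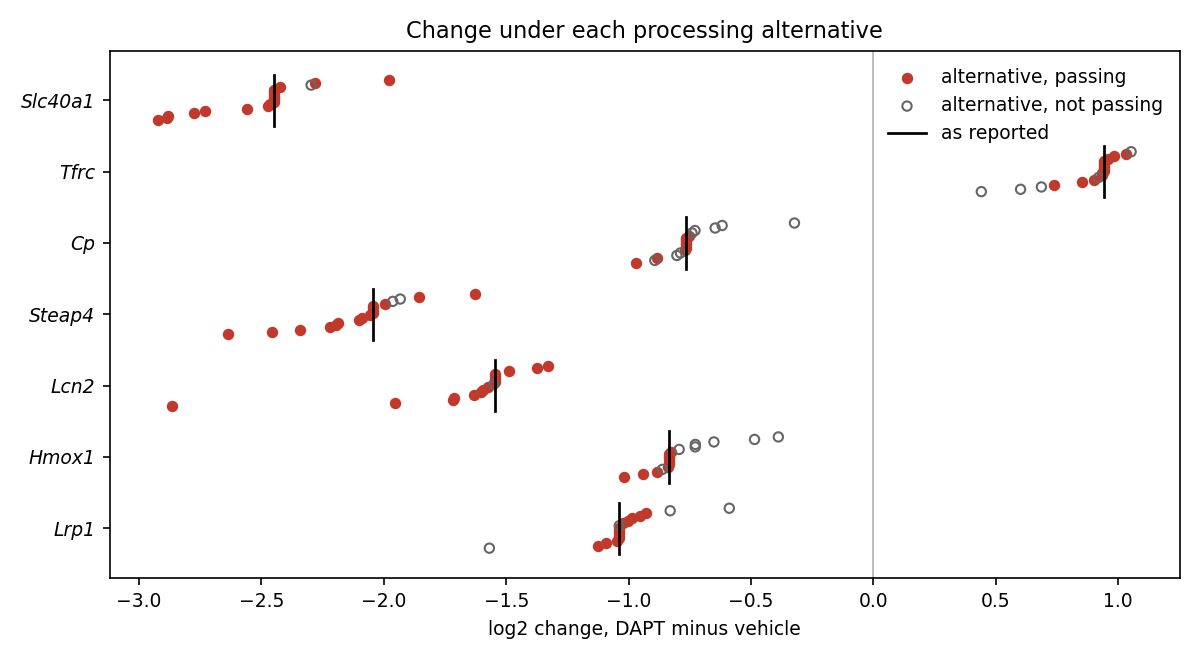
Change of the log2 ratio, DAPT minus vehicle (horizontal axis), of 7 genes (vertical axis: the members Slc40a1, Tfrc and Cp, and Steap4, Lcn2, Hmox1 and Lrp1, described further on). Each point is a way of processing, filled where it passed the threshold and open where it did not, and the black bar is the value as reported. Slc40a1 stays between -2.92 and -1.98, Tfrc reaches down to 0.44 with the high-background spots kept, and Cp lies nearest to 0 with median centring (-0.32).

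The wider iron machinery was read from 6 lists of 72 other genes, of which 68 had a probe and 62 were tested. Of these, 1 was higher and 5 were lower in DAPT spheres, beside 2.88% and 3.92% of all genes. Their median change was -0.02, against -0.06 for all genes. The lists were set by role and not by how their genes moved, but with earlier results of these arrays known. With median centring, which moved the median of all genes from -0.06 to 0.11, the lists' median was 0.29, with 3 genes higher and 3 lower beside 5.88% and 2.46% of all genes. Without vehicle 1 the counts were 3 higher and 4 lower (3.77% and 4.77% of all genes). Without vehicle 2 they were 0 and 5 (2.73% and 3.64%), and without DAPT 1 they were 2 and 3 (2.99% and 3.62%).

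Of 14 tested genes of uptake and reduction, 2 were lower, beside 3.92% of all genes, and none was higher, with a median of 0.05. Steap4, a reductase that converts ferric to ferrous iron, had log2 ratios of 2.10 and 1.27 with vehicle and -0.41 and -0.31 with DAPT. The groups did not overlap, and the change was -2.04 ± 0.26 (limma, adjusted p = 0.000701, n = 2 per group). A second Steap4 probe gave -2.64. Lcn2, a lipocalin that binds iron-carrying siderophores and is also an innate defence gene, read 1.71 and 1.37 with vehicle and -0.06 and 0.05 with DAPT. Its change was -1.55 ± 0.20 (limma, adjusted p = 0.00102). The spot was well above background on 2 vehicle arrays and 1 DAPT array, so Lcn2 entered the test through the group where it was high. With no filter on dim probes the adjusted p in limma was 0.000472, and under the filter for all 4 arrays Lcn2 was not tested. Both changes lay in red, at -1.96 for Steap4 and -1.55 for Lcn2. Of the alternatives that kept all 4 arrays, Steap4 passed under 12 of 14 and Lcn2 under 11 of 12, with -2.86 for Lcn2 from the processed signals. Steap3, the endosomal reductase that works with Tfrc, did not pass (0.28 ± 0.21, limma adjusted p = 0.460), with red at -0.57 and green at -0.85. Tfr2, a second transferrin receptor, and Cybrd1, a duodenal iron reductase, were too dim to test, well above background on 0 arrays and 1 array.

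None of the 9 tested genes of export and its hormone passed, with changes from -0.30 to 0.59 and a median of 0.04. Hamp, which encodes hepcidin, the liver hormone that removes ferroportin from the surface, changed by 0.11 ± 0.20 (limma adjusted p = 0.785). The haem exporter Flvcr1 stood at 0.04 ± 0.21 (limma adjusted p = 0.932), with a sign that turned under median centring (-0.21). Hfe, which helps sense iron-loaded transferrin, was too dim to test and well above background on 1 array.

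None of the 9 tested genes of storage turnover, chaperones and sensing passed either, with changes from -0.60 to 0.41 and a median of -0.13. Ncoa4, the receptor that takes ferritin to lysosomes, changed by 0.07 ± 0.20 (limma adjusted p = 0.865). Fbxl5, the iron-binding ligase subunit that marks IRP2 for decay, changed by 0.41 ± 0.21 (limma adjusted p = 0.273), and passed only with median centring (0.73). The 9 genes of haem synthesis ran from -0.36 to 0.77 with a median of 0.05, and none passed.

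Of 8 tested genes of haem uptake and breakdown, 3 were lower, beside 3.92% of all genes, and none was higher, with a median of -0.41. With so few genes nothing is read from this count, and Hp, 1 of the 3, was not lower in red. Hmox1, the inducible haem oxygenase that frees iron from haem, had log2 ratios of 0.43 and 0.80 with vehicle and -0.33 and -0.11 with DAPT. Its change was -0.83 ± 0.21 (limma, adjusted p = 0.0338, n = 2 per group), and without 1 array the change was -1.02 to -0.65. Lrp1, a broad endocytic receptor that also takes up haem bound to hemopexin, read 0.04 and -0.07 with vehicle and -1.14 and -0.97 with DAPT. Its change was -1.04 ± 0.20 (limma, adjusted p = 0.00885), with red at -1.57 and green at -0.53. Hp, the plasma protein that binds free haemoglobin, read -0.02 and -0.46 with vehicle and -1.19 and -1.04 with DAPT, a change of -0.87 ± 0.21 (limma, adjusted p = 0.0303). The red signal of Hp did not fall (0.14 higher) and the reference signal was 1.01 higher, so its call lay in the reference channel. The Hp spot was well above background on 1 vehicle array and 2 DAPT arrays. Without 1 array the change of Hp was -1.09 to -0.65. Of the alternatives that kept all 4 arrays, Hmox1 passed under 8 of 13, Lrp1 under 9 of 13 and Hp under 7 of 12. With median centring Hmox1 (-0.39) and Lrp1 (-0.59) did not pass. Hba-a1 and 6 of 8 fibroblast markers fell on the same arrays, and their part in these values was not tested.

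Of 13 tested genes of mitochondrial iron and iron-sulfur clusters, 1 was higher, beside 2.88% of all genes, and none was lower, with a median of -0.02. Abcb10, a transporter of the inner mitochondrial membrane linked to haem synthesis, had log2 ratios of 0.89 and 0.06 with vehicle and 1.42 and 1.47 with DAPT. Its change was 0.97 ± 0.25 (limma, adjusted p = 0.0408, n = 2 per group). The spot was well above background on 1 vehicle array and 2 DAPT arrays, so Abcb10 too entered the test through the group where it was high. With no filter on dim probes the adjusted p in limma was 0.0365, and under the filter for all 4 arrays Abcb10 was not tested. Without vehicle 2, the lower of the vehicle arrays, the change was 0.56, and without vehicle 1 it was 1.39. Abcb10 passed under 6 of 13 alternatives that kept all 4 arrays, and with median centring the change was 0.28.

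**Figure D5:**
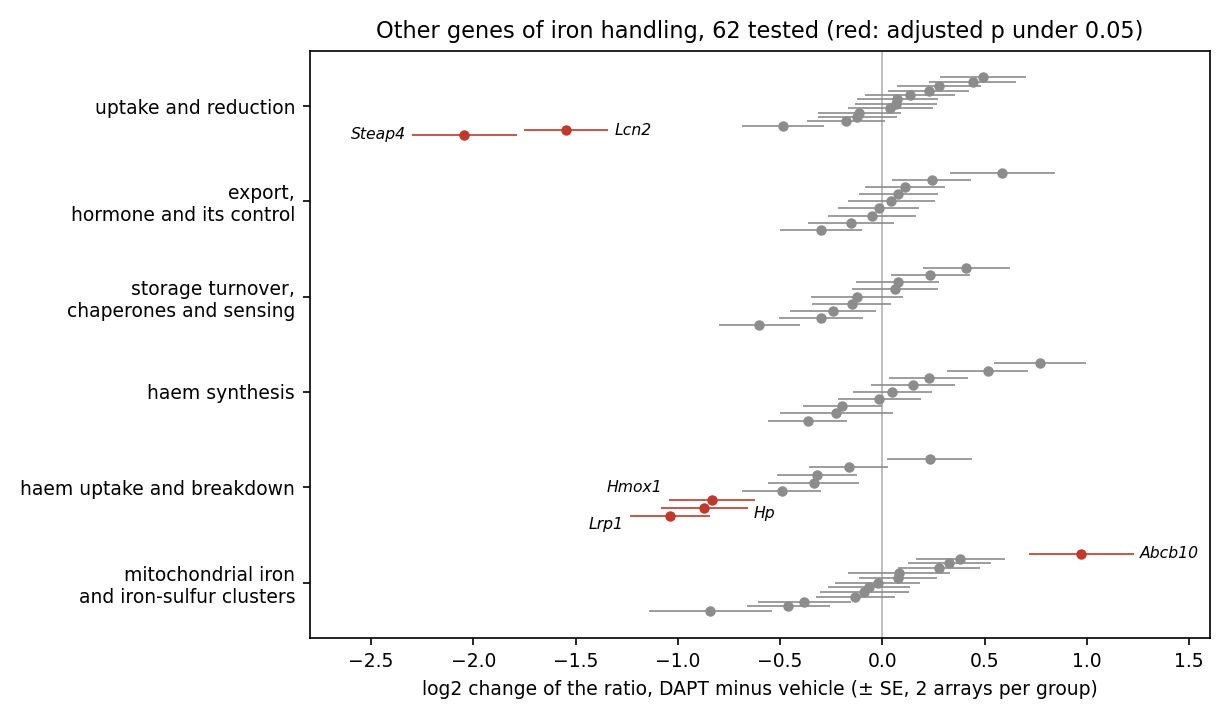
Change of the log2 ratio, DAPT minus vehicle (horizontal axis), with its SE as a line, for the 62 tested genes of the 6 lists (vertical axis), 2 arrays per group. Red points passed the threshold, namely Steap4, Lcn2, Lrp1, Hp and Hmox1 below 0 and Abcb10 above 0, and the other 56 did not.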

How the data were processed

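RNA of 2 vehicle and 2 DAPT sphere samples was measured on 4 two-colour Agilent arrays of 45018 spots, all on 1 slide with 1 scan time. The deposited scanner files hold the median spot and local background intensity of each channel from Feature Extraction 10.7.3.1, per the file headers, not normalized. They also hold processed intensity values that the software had background-subtracted and dye-normalized, and a log10 ratio of red over green, per the file headers. The value table the authors deposited is on a log2 scale and correlated at 0.9996 to 0.9998 with the ratios computed here and at 0.869 to 0.902 with the scanner ratios, which settles scale and direction (sample over reference). Its columns had medians between -0.015 and 0.00072. The sources used here do not say how it was normalized.

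Background was corrected with normexp (offset 50), after leaving out 13 spots of DAPT 2 whose local background exceeded the array's median more than 5 times, and loess was fitted within arrays in limma 3.58.1 (R 4.3.3). Single channels were normalized further with Aquantile. Repeated spots were averaged per probe. The filter required a red signal well above background on both vehicle or both DAPT arrays. Each gene was read from its brightest probe past this filter, for 21464 genes (13987 named). Of 41174 probes, 24375 were named through RefSeq accessions of GRCm38.p6. Groups, from the sample titles, were compared with lmFit and eBayes (two-sided, 2 residual degrees of freedom plus a prior of 10.2), with Benjamini-Hochberg adjustment over all genes at 0.05. The fit was tested on simulated data.

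The members and lists were chosen with earlier results of these data known. Named genes are all members, the wider iron genes that passed, 10 iron genes named whatever their values, and the 5 genes closest to Slc40a1, of which 1 is not reported here. Alternatives changed the background correction, normalization, signals, probe filter, spot marks, probe choice and replicates. Changing the probe filter, the replicate block or, for a gene with 1 kept probe, the probe choice mostly left its change as it was. The authors' deposited values nearly repeat the ratios computed here. Counts of alternatives passed are thus not counts of separate checks. A fit without 1 array leaves 1 array in that group, so its SE comes mainly from the spread shared between genes. Passing or not passing in such a fit therefore cannot show how firm a call is, and it mainly follows the size of the change. The number of arrays limits the precision.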

Additional observations from a re-analysis of the deposited data

How the results depend on the processing

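Over all genes the main setting gave 618 higher and 841 lower (42.4% higher). Higher and lower counts were 358 and 517 with an offset of 10, 3 and 70 with the high-background spots of DAPT 2 kept, 1263 and 527 with median centring (70.6% higher), 384 and 1000 with scale normalization between arrays (27.7% higher), 292 and 338 with processed signals, 174 and 73 of 3944 genes with marked spots left out (70.4% higher), and 0 and 1 in the red channel alone. With the high-background spots kept, 4.11% of the calls were higher. Higher members numbered 0 with an offset of 10, with those spots kept, with median centring, with processed signals and in red alone. Lower members numbered 1 under the same settings and with marked spots left out (3 members tested), except 0 in red alone, and 1 to 2 without 1 array. Of the wider iron genes, 0 were higher with an offset of 10, high-background spots kept, scale normalization, processed signals, red alone, the filter for all 4 arrays or marked spots left out, 3 with median centring, 2 with every probe on its own, and 0 to 3 without 1 array. Lower wider iron genes numbered 3 with an offset of 10, median centring or the filter for all 4 arrays, 1 with high-background spots kept or marked spots left out, 2 with processed signals, 0 in red alone and 3 to 5 without 1 array. The cause of these moves was not tested, except that fewer genes were tested under the filter and without marked spots.

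Signs turned only for values that had not passed, apart from Hp, which was 0.14 in red alone. Slc11a2 was 0.26 with median centring, 0.073 with scale normalization, 0.60 with processed signals, 0.44 in red alone and -0.22 to 0.042 without 1 array. Fth1 was 0.23 with median centring and -0.57 to 0.13 without 1 array, Ftl1 0.11 with median centring, and Aco1 -0.058 to 0.46 without 1 array. Ireb2 was 0.30 in red alone, 0.39 without marked spots (its other probe) and 0.14 as the mean of its probes. Hamp was -0.15 with processed signals and -0.20 in red alone, and Steap3 -0.57 in red alone. Ncoa4 was -0.056 with high-background spots kept, -0.039 with scale normalization, -0.25 in red alone, -0.019 as the mean of its probes and -0.099 to 0.25 without 1 array. Flvcr1 was -0.076 with an offset of 10, -0.11 with high-background spots kept, -0.21 with median centring, -0.061 with scale normalization, -0.35 with processed signals and -0.13 to 0.22 without 1 array.

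With the replicate number as a block, 894 genes were higher and 1169 lower, 1 member was higher and 2 were lower, and 2 wider iron genes were higher and 6 lower. The deviations of same-numbered arrays correlated at 0.0942 over 2 pairs. With 2 arrays per group this value cannot show whether same-numbered arrays were prepared together, and the labels do not say. A slide or scan block was not run, since all arrays share 1 slide and 1 scan. Dim signal limits Heph, Tfr2, Cybrd1 and Hfe, which were not tested. It also limits Trf, Lcn2, Hp and Abcb10, each well above background in red on 3 arrays. The single slide with its positions split by group, 2 arrays per group and the lack of dye swaps limit all values.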
